A study of Mus musculus with 2 samples.

Results

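The miR-15 family is a group of microRNAs (miRNAs) defined by a shared seed, and it was followed here as mmu-miR-15a, mmu-miR-15b, mmu-miR-16, mmu-miR-195a, mmu-miR-497a and mmu-miR-322, where mmu stands for mouse. Its members were taken by name, with every arm of each precursor, which gave 13 of the 1900 mouse miRNA probes on the array. Of these, 6 probes detect 5p arms and 7 detect 3p arms, because miR-16 has a 3p arm of its own from each of its genes. The samples were total RNA from mononuclear cells isolated from the colonic lamina propria, the connective tissue under the gut epithelium, of male Balb/c mice. One sample came from germ-free animals, which carry no microbes, and the other from specific pathogen-free (SPF) animals, which carry a gut microbiota. No other treatment is named for either group, and the labels give neither the age nor the number of animals behind a sample. Each group was measured on 1 array, so no value below has a replicate error and no test between the groups was possible.

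A miRNA guides an Argonaute protein to messenger RNAs, mainly through pairing of its seed, bases 2 to 8, and miRNAs with the same seed are predicted to share many targets. Members of the miR-15 family repress Bcl2, which protects cells from apoptosis, and cell cycle genes such as those for D-type and E-type cyclins. The gene pair of miR-15a and miR-16-1 is known for its loss in chronic lymphocytic leukaemia, a B cell cancer, and miR-16 is so widely expressed that it often serves as a reference in miRNA measurements. miR-195a and miR-497a are studied in muscle and in postnatal growth arrest, and miR-322, the mouse counterpart of human miR-424, in muscle and mesenchymal differentiation.

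All 13 family probes matched a mature sequence in RefSeq (GRCm38.p6). The 6 mature 5p sequences are shown because they carry the seed that defines the family and because their remaining bases set how well the probes can tell them apart. They are written 5′ to 3′ with the seed in capitals.
miR-16-5p: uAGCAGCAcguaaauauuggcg
miR-15a-5p: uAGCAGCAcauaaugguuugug
miR-15b-5p: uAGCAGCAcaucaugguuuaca
miR-195a-5p: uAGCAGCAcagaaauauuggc
miR-497a-5p: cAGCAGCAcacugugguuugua
miR-322-5p: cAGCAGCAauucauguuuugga

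Aligned from the 5′ end without gaps, miR-16-5p and miR-195a-5p differed at 2 of 21 positions, the closest pair of the family. miR-15a-5p and miR-15b-5p differed at 4 of 22 positions, and miR-15a-5p and miR-497a-5p at 5 of 22. miR-16-5p and miR-497a-5p, by contrast, differed at 11 of 22. Among the 1679 mature names in the RefSeq table, 10 had the same bases 2 to 8, namely the 6 family 5p arms and 4 others, whose probes are described further on. None of the family's 3p arms has this seed. The 3p sequence of the brightest of them is given as an example.
miR-15b-3p: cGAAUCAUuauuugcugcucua

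The family comes from 7 precursors at 4 places in the genome (GENCODE M21, GRCm38). Mir15a (chr14:61632027-61632110) and Mir16-1 (chr14:61631880-61631972) lie 54 bases apart on the minus strand within the long non-coding RNA gene Dleu2, Mir15a in an intron and Mir16-1 overlapping an annotated exon. Mir15b (chr3:69009772-69009835) and Mir16-2 (chr3:69009902-69009996) lie 66 bases apart in an intron of Smc4, which encodes a condensin subunit, on the plus strand of both. Mir497 (chr11:70234717-70234800), the gene of miR-497a, and Mir195a (chr11:70235042-70235135) are 241 bases apart on the plus strand, outside any annotated host gene. Mir322 (chrX:53054255-53054349) lies on the minus strand 200 bases from Mir503. The mature miR-16-5p is identical from both of its genes, so its single probe measures their sum.

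The values are median spot intensities of the Hy5 label with 1 spot per miRNA probe. The mean of the blank spots of each array was subtracted, 128.5 for germ-free and 158.3 for SPF, and the result is called net intensity. SPF net intensities were then multiplied by 0.849, which made the median of the 1471 miRNA probes above the floor on both arrays equal. The floor was 2 SD of the blank spots above their mean. It is low: of the 174 spots printed with no probe, called probe-free spots here, 66.7% exceeded it in the germ-free sample and 71.8% in the SPF sample. A stricter level, 2 SD above the mean of the probe-free spots, corresponded to net intensities of 37.2 and 37.3 and is called the probe-free level. Differences are given as log2 of SPF over germ-free net intensity. The technical SD beside them combines the spread of 5 bright control probes with 8 spots each (SD of 0.0908 on the log2 scale within an array) with the SD of the blank spots. It does not include spread between samples, labellings or hybridisations. Over the 1471 probes the median log2 value was -0.06.

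All 6 of the 5p arms had lower net intensities on the SPF array, except that miR-497a-5p was higher without scaling, with equal block medians or with local background subtracted, and miR-15a-5p and miR-15b-5p with local background subtracted. Their median log2 value was -0.52, and it was near 0 with local background subtracted. miR-195a-5p had the largest difference, 1.99-fold lower at -0.99, miR-15b-5p was 1.54-fold lower, miR-15a-5p 1.44-fold, miR-322-5p 1.42-fold and miR-16-5p 1.30-fold. miR-497a-5p was nearly level at 1.04-fold lower. For comparison, 57.6% of the 1471 probes above the floor on both arrays were lower on the SPF array by any amount, and 60.1% of the 735 probes brighter than their median, a class that holds all 6 of these 5p probes. A fold of 1.5 or more in the lower direction was reached by 2 of the 6, miR-195a-5p and miR-15b-5p, where 7.61% of the shared probes and 4.90% of the brighter ones reached it. Of the 6, 5 differed between the arrays by more than 2 technical SDs, miR-497a-5p being the exception. The share of all shared probes past 2 technical SDs was not computed, so this count does not set the family apart. Since the family was chosen with earlier results of these data known, these counts describe the 2 arrays and are not a test.

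mmu-miR-16-5p, the widely expressed member, had an intensity of 12186.5 in germ-free and 11054.5 in SPF cells. After background and scaling these were net intensities of 12058 and 9253, a log2 value of -0.38 with a technical SD of 0.13. That value was -0.15 without scaling and -0.70 with equal block medians. miR-16-5p ranked 14 of the 1900 miRNA probes by brightness in the germ-free sample and 19 in the SPF sample. The brightest signal of the family was therefore also among the brightest of either array.

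mmu-miR-15a-5p, made from the same Dleu2 locus as one copy of miR-16, gave net intensities of 1603 in germ-free and 1114 in SPF cells, a log2 value of -0.53 (technical SD 0.13). mmu-miR-15b-5p, made from the Smc4 locus with the other copy, gave 1416 and 920.1, a log2 value of -0.62 (technical SD 0.13). miR-15a-5p was at 1.13 times miR-15b-5p in germ-free and 1.21 times in SPF cells. The difference between their log2 values was 0.10, less than its technical SD of 0.18, but it was 0.55 with the medians of the array's blocks made equal. Both were also measured against miR-16-5p, to which the ratio was lower on the SPF array by 0.14 for miR-15a-5p and by 0.24 for miR-15b-5p on the log2 scale, with a technical SD of 0.18 for each. These directions did not hold throughout, since with equal block medians the ratio of miR-15a-5p to miR-16-5p was higher by 0.42, and with local background subtracted that of miR-15b-5p was higher by 1.35.

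mmu-miR-195a-5p had net intensities of 1355 in germ-free and 682.0 in SPF cells, a log2 value of -0.99 with a technical SD of 0.13. It was the 24th lowest log2 value among the 1471 shared probes. mmu-miR-497a-5p, whose gene is the neighbour of Mir195a, had net intensities of 89.2 and 86.2, a log2 value of -0.05 with a technical SD of 0.17. The miR-195a-5p signal was 15.2 times that of miR-497a-5p in germ-free cells and 7.92 times in SPF cells. That is a change of -0.94 in the log2 ratio, with a technical SD of 0.21. A ratio within an array needs no scaling between arrays. The change in this one was between -1.51 and -0.86 over the 14 processing settings. A single scale factor or another floor cannot alter it, so many of these settings were no check on it. Among those that can, it was -0.98 with equal block medians and -1.51 with local background subtracted. The signals of these 2 probes, 1 spot each, differed unequally between the 2 arrays.

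The near identity of miR-195a-5p and miR-16-5p allows their probes to share signal, and the miR-16-5p spot was 8.90 times as bright as the miR-195a-5p spot in the germ-free sample. In the SPF sample it was 13.6 times as bright, a change of 0.61 in the log2 ratio (technical SD 0.18) that came to 0.18 when the median of each block of the array was made equal. How much of the miR-195a-5p signal comes from miR-16-5p was not tested. The probe for miR-195b, a separate gene on chromosome 2 whose product differs from miR-195a-5p at 3 of 21 positions and from miR-16-5p at 6 of 22, had net intensities of only 20.2 and 23.8. Both are under the probe-free level. The sequence of miR-195b is shown for comparison with miR-195a-5p.
miR-195b: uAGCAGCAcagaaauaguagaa

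mmu-miR-322-5p, the member encoded on the X chromosome, had net intensities of 119.1 in germ-free and 83.7 in SPF cells, a log2 value of -0.51 with a technical SD of 0.16. This difference was -0.22 without any background subtraction and -0.05 with local background subtracted. The order of the 5p probes by brightness on the germ-free array was miR-16, miR-15a, miR-15b, miR-195a, miR-322 and miR-497a. On that array miR-15a-5p, miR-15b-5p and miR-195a-5p followed each other within 2 technical SDs, at steps of 0.18 and 0.06 on the log2 scale. On the SPF array miR-195a-5p stood 0.43 below miR-15b-5p (technical SD 0.13), and miR-497a-5p and miR-322-5p were within 0.04 of each other (technical SD 0.17). Brightness also depends on each probe's affinity, so this order is one of signals and not of molecules.

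**Figure D1:**
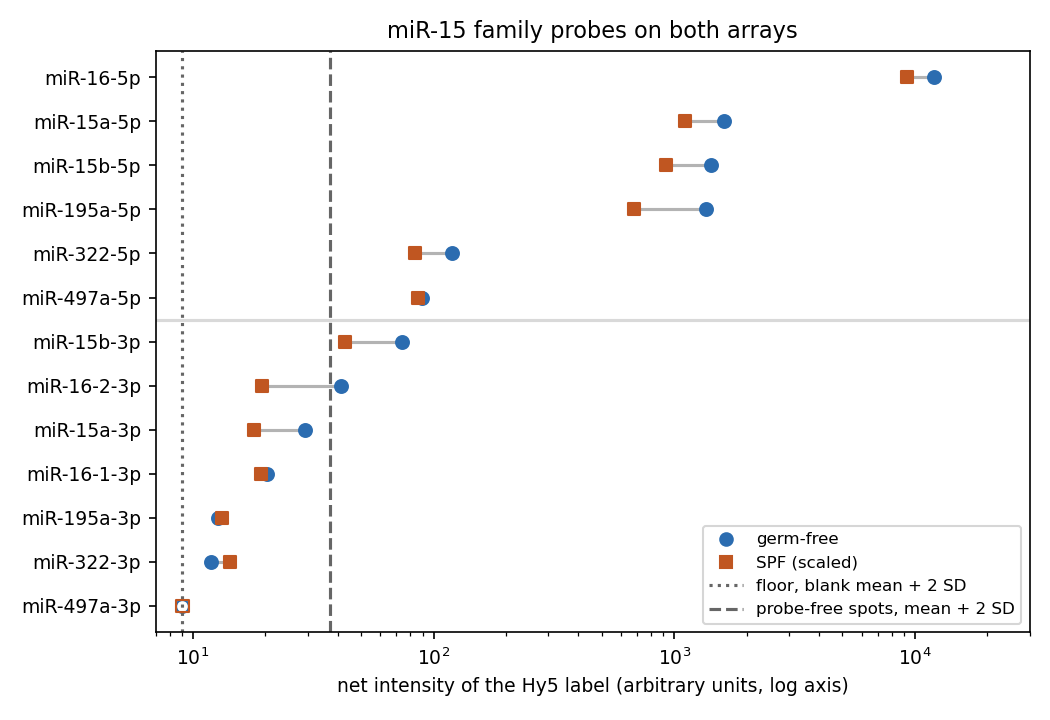
Net intensity of the Hy5 label (log axis, arbitrary units) of the 13 family probes on the germ-free array (circles) and the scaled SPF array (squares), 1 spot each, with the floor dotted and the probe-free level dashed. Each 5p probe lies to the right of the dashed line on both arrays with its square at or left of its circle (for miR-497a-5p not without scaling, and for miR-15a-5p and miR-15b-5p not with local background subtracted), while most 3p probes lie left of that line. Open symbols at the floor mark miR-497a-3p, which was under it on both arrays.

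Summed over the 6 5p probes, net intensity was 16639.5 in germ-free and 12138 in SPF cells, a log2 value of -0.46. miR-16-5p alone made up 72.5% and 76.2% of these sums. Without it the sums were 4581 and 2886, a log2 value of -0.67. The 5p probes held 1.62% of the net signal of all miRNA probes in germ-free cells and 1.21% in SPF cells.

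**Figure D2:**
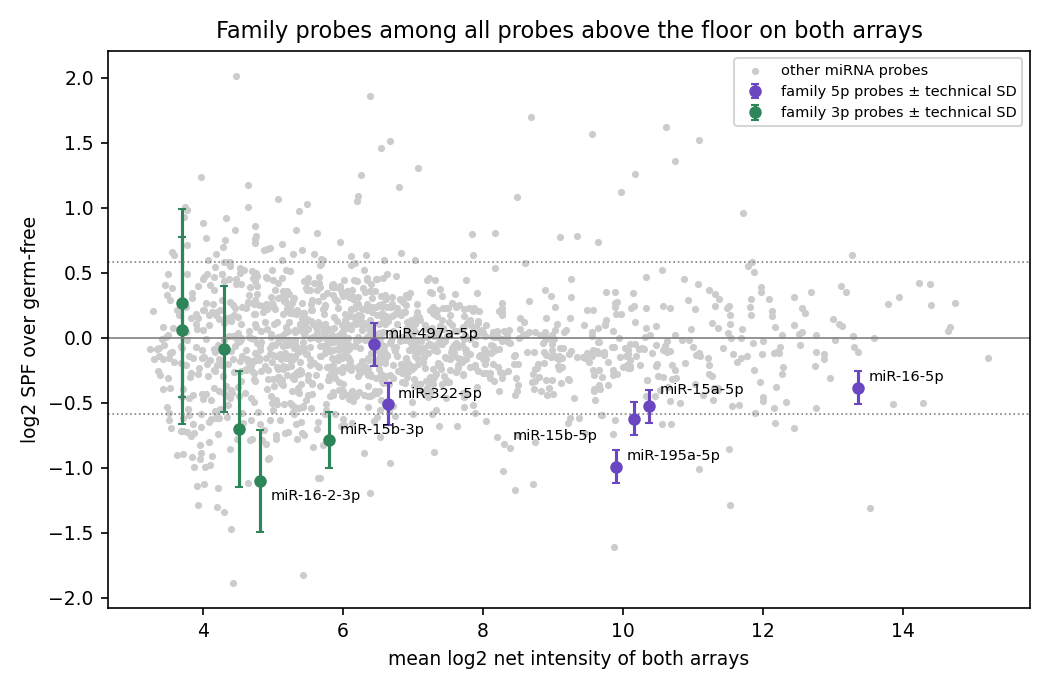
Log2 SPF over germ-free against mean log2 net intensity for the 1471 probes above the floor on both arrays, with family 5p and 3p probes in colour, their bars showing the technical SD and dotted lines a fold of 1.5. The 5p probes all lie below 0, from -0.05 for miR-497a-5p to -0.99 for miR-195a-5p, and the bars widen toward dim probes. Other processing moved miR-497a-5p and, with local background subtracted, miR-15a-5p and miR-15b-5p above 0.

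The 3p arms, the strands less often loaded into Argonaute in this family, gave much weaker signals than the 5p arms. Of the 7 probes, 6 were above the floor on both arrays, and miR-497a-3p was under it on both, with intensities of 125.0 and 147.4 below the blank means. Only miR-15b-3p was above the probe-free level on both arrays, and 5 of the 7 were under it on both. Of all 1900 miRNA probes, 1471 were above the floor on both arrays. The share of them above the probe-free level on both was not computed. miR-15b-3p had net intensities of 73.7 in germ-free and 42.8 in SPF cells, a log2 value of -0.79 with a technical SD of 0.22. With no background removed its value was -0.23, and -0.13 after local subtraction. It is the other strand of the precursor of miR-15b-5p.

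The remaining 3p arms were too dim for a firm value. miR-16-2-3p, from the Smc4 locus, was at 41.4 and 19.3, a log2 value of -1.10 with a technical SD of 0.39. It was the one family probe at least 2-fold lower, where 1.43% of the shared probes were. Without background subtraction its value was -0.18, and it was -0.11 with the probe-free level as the floor. miR-16-1-3p, from the Dleu2 locus, was at 20.3 and 19.1, a log2 value of -0.09 with a technical SD of 0.49. These 3p arms are the only miR-16 probes that tell its genes apart, and on the SPF array both lay under the probe-free level.

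miR-15a-3p had a log2 value of -0.70 (technical SD 0.45), from net intensities of 29.2 and 18.0. miR-195a-3p at 0.06 (technical SD 0.72) and miR-322-3p at 0.27 (technical SD 0.73) were higher on the SPF array by less than 1 technical SD. Over the 6 3p probes with a value the median was -0.39, with 4 lower and 2 higher, although miR-16-1-3p, miR-195a-3p and miR-322-3p each changed direction under some settings. Together with the 5p arms, 5 of the 12 family probes above the floor were at least 1.5-fold lower and 0 at least that much higher, where 7.61% and 4.62% of the shared probes were. The count of lower probes was 7 with the control probes made equal, 2 without scaling or without background subtraction and 1 with local background subtracted. Of those 5, miR-15a-3p and miR-16-2-3p were under the probe-free level on at least 1 array.

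The 4 other mouse miRNAs with the family seed were miR-195b, miR-6342, miR-6353 and miR-6419. Their sequences past the seed are shown because they differ from the family's.
miR-6342: cAGCAGCAaucuggucuuugag
miR-6353: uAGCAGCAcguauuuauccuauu
miR-6419: cAGCAGCAaucugacacaugga

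Of these, 3 were under the probe-free level on both arrays. miR-6419 was above it, with net intensities of 42.9 and 51.3 and a log2 value of 0.26 (technical SD 0.24). miR-6342 was at 0.25 (technical SD 0.32), miR-195b at 0.23 (technical SD 0.44) and miR-6353 at -0.62 (technical SD 0.53). Of the 4, 3 were thus higher on the SPF array by no more than about their technical SD. Their summed net intensity of 115.8 in germ-free cells compares with 16639.5 for the family's 5p arms.

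The miRNAs encoded next to Mir322 on the X chromosome were given by a list of 11 probes for miR-503, miR-351, miR-542, miR-450a and miR-450b. Of these, 5 were under the floor on both arrays and 6 had a value, with a median of -0.33, 4 lower and 2 higher, a share of lower values near the 57.6% of all shared probes. miR-503-5p shares bases 2 to 7 with the family but not base 8, as its sequence shows.
miR-503-5p: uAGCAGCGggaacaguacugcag
It was at 55.1 in germ-free and 33.2 in SPF cells, a log2 value of -0.73 (technical SD 0.26), the only one of the 6 at least 1.5-fold lower, where 7.61% of the shared probes were. The brightest of them, miR-351-5p, was at 360.4 and 302.0, a log2 value of -0.26 (technical SD 0.13).

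The other values in this cluster were -0.47 for miR-351-3p, -0.40 for miR-450a-5p, 0.00 for miR-542-5p and 0.44 for miR-503-3p. Technical SDs were 0.19, 0.34, 0.43 and 0.49 in that order, so miR-542-5p and miR-503-3p did not differ beyond them. miR-542-3p, miR-450a-1-3p, miR-450a-2-3p, miR-450b-5p and miR-450b-3p were the 5 probes under the floor. miR-497b, from the strand opposite Mir497, was also under the floor on both arrays, with net intensities of 2.85 and 8.53.

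Lists of miRNAs used as cell type markers differed between the arrays as well. The 5 lymphocyte markers summed to a net intensity of 21152 in germ-free and 9237 in SPF cells, with a median of -0.59. Of the 5, 4 were lower and 3 at least 1.5-fold lower, where 57.6% and 7.61% of the shared probes were. miR-150-5p, a miRNA of mature lymphocytes, made up most of that sum, at 18699.5 and 7552. The local background around its spot was 115% of the spot's intensity in the germ-free sample and 22.9% in the SPF sample. With local background subtracted, miR-150-5p was therefore higher and not lower on the SPF array. The 3 pan-leukocyte and myeloid markers summed to 9502 and 6255, with a median of -0.66. Of the 3, the 2 arms of miR-142a were at least 1.5-fold lower, at -1.01 and -0.66, where 7.61% of the shared probes were. The third, miR-223-3p, was at least 1.5-fold higher, at 0.74, where 4.62% of the shared probes were. The 8 intestinal epithelium markers summed to 5458 and 14529. All 8 were at least 2-fold higher, where 1.56% of the shared probes were, with miR-192-5p at 1.62 and miR-200b-3p at 1.53. The local background of the miR-192-5p spot was 106% of its intensity in germ-free and 14.1% in SPF cells, so its fold depends on how background is removed.

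Every marker of these lists was above the floor on both arrays, the epithelial ones included. The 3 erythroid markers had a median of -0.27, the 5 smooth muscle and stroma markers one of 0.05, and the endothelial marker was at 0.25. The 16 widely expressed miRNAs, a list without family members, had a median of -0.10 with none past a fold of 1.5, against -0.52 for the family's 5p arms. In these bulk samples, fewer cells of a type and less of a miRNA per cell cannot be told apart, and the part of the marker differences in the family's values was not tested.

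**Figure D3:**
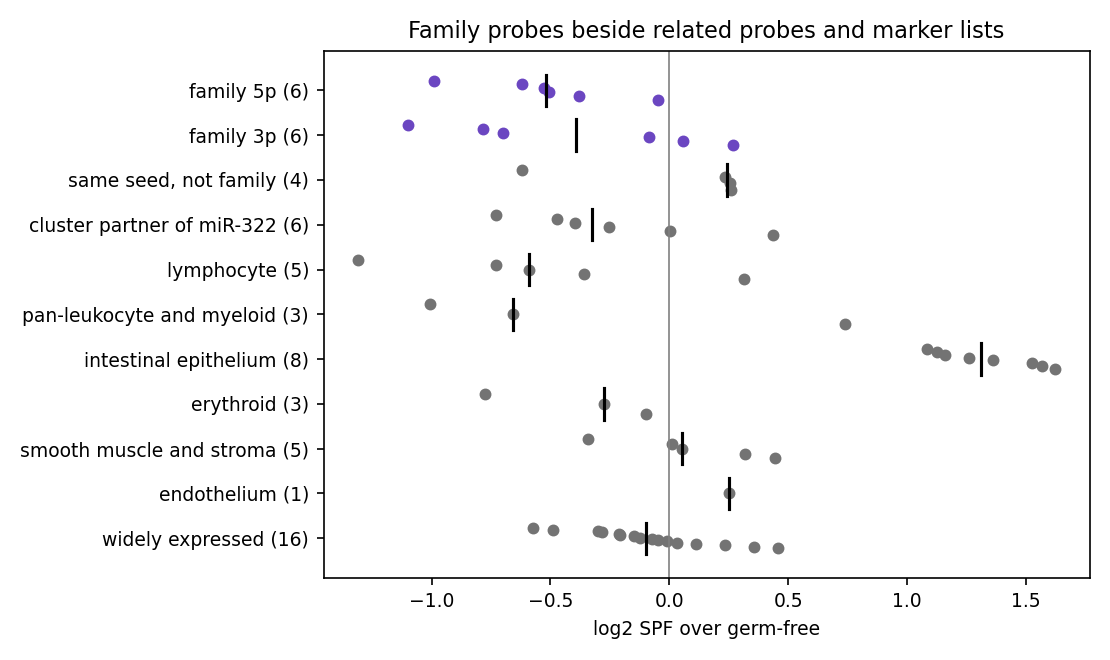
Log2 SPF over germ-free of each probe (dots) with the median (bars) for the family's 5p and 3p arms, other probes with the seed, the cluster partners of miR-322 and the marker lists, the number of probes with a value in brackets. The medians run from -0.66 for the pan-leukocyte and myeloid list to 1.31 for the intestinal epithelium list. The family 5p median is -0.52, and it was near 0 with local background subtracted.

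The values of miR-15a-5p and miR-15b-5p depended on how background was removed. The local background around the miR-15a-5p spot was 102% of the spot's own intensity in the germ-free sample and 46.6% in the SPF sample. For miR-15b-5p the shares were 84.8% and 51.9%. The other bright members had similar shares on both arrays, 76.6% and 74.2% for miR-16-5p and 81.4% and 84.0% for miR-195a-5p. With each spot's local background subtracted, miR-15a-5p and miR-15b-5p were both higher on the SPF array. miR-15b-5p was at 0.87. miR-15a-5p came to -30.1 in germ-free and, before scaling, 785.5 in SPF cells, so that no log2 value could be taken and only its direction is given. miR-16-5p was at -0.47 and miR-195a-5p at -1.32. With miR-15a-5p counted as higher, the median of the 5p arms under this setting was 0.068, so the lower family median was not seen with local background subtracted.

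A single scale factor between the arrays moves all members together, while a correction block by block does not. The median of the 1471 shared probes shifted by 0.24 without scaling and by -0.13 with the control probes made equal, on the log2 scale. Relative to that median, the 5p median was lower by 0.46 as reported. A single factor cannot change this difference, so its being the same under both of these scalings says nothing about stability. With the medians of the array's blocks made equal the 5p median was lower by 0.63, and miR-16-5p was at -0.70 and miR-15a-5p at -0.28. With local background subtracted, the difference of the 5p median from that of the shared probes was -0.0085. miR-497a-5p was the one 5p arm whose direction changed with the scaling, at 0.19 without scaling and 0.10 with equal block medians.

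**Figure D4:**
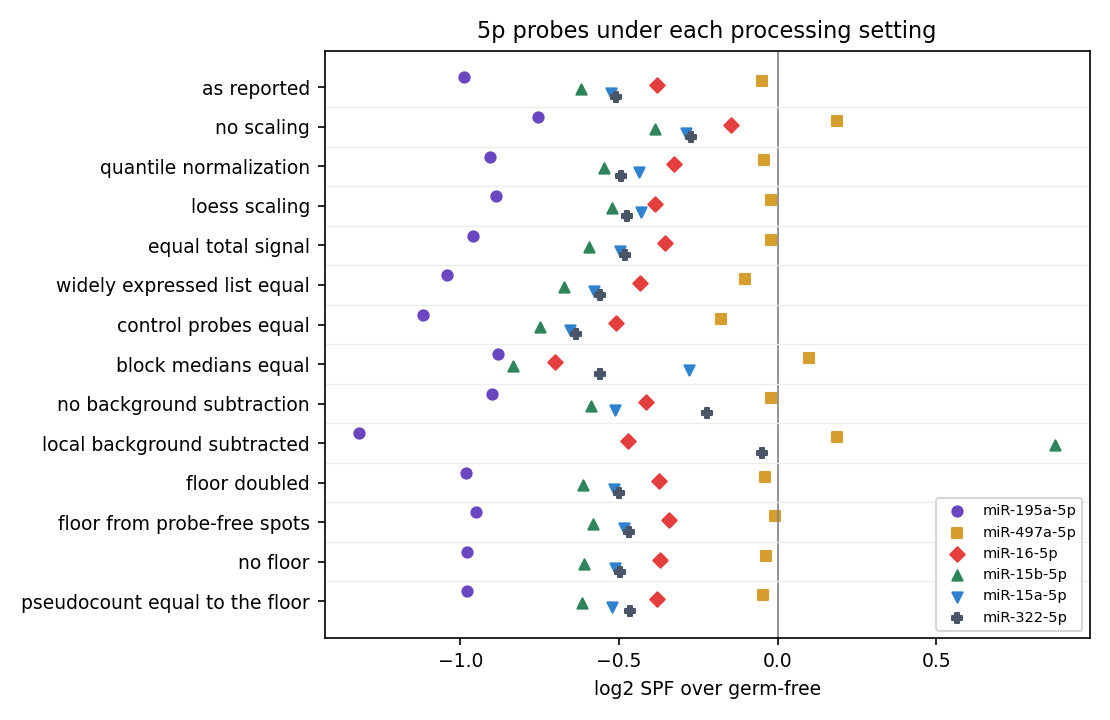
Log2 SPF over germ-free of the 6 5p probes (symbols) under each of 14 processing settings (rows), the top one as reported. miR-195a-5p stays at or below -0.75 in each, miR-497a-5p crosses 0, and miR-15b-5p moves to 0.87 with local background subtracted, where miR-15a-5p has no log2 value and is higher on the SPF array.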

How the data were processed

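For each of 3200 spots per array the authors deposited an intensity (spot median) and the median background around the spot. The columns show no subtraction or scaling. RNA was labelled with Hy5 using an Exiqon kit, per the labels' protocols. Scans were made at 3 gains, per the file headers. Neither source names the array platform or the scanner.

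From these, the blank mean (896 germ-free and 895 SPF spots, 1 marked NG left out) was subtracted, values under the floor on 1 array were set to it, and probes under it on both arrays had no value. The SPF array was scaled by the median of shared probes. Python 3.11.15, numpy 2.4.6, pandas 2.3.3 and statsmodels 0.14.6 were used. The procedure was tested on simulated arrays, which held only the noise of control and blank spots, and only bright probes were checked. Effects of blocks, local background or hybridisation were not simulated. Every family probe, every other probe with the seed and every cluster partner was named. Of the marker lists, miR-150-5p, miR-200b-3p, miR-192-5p and the 3 pan-leukocyte and myeloid probes were named. The members, lists and settings were chosen with earlier results of these data known. The list that pairs miR-195b with miR-497b as opposite-strand genes was wrong for miR-195b, which lies on another chromosome. Alternatives concerned scaling, background, floor, members and fold threshold. With local background subtracted, a spot at or under it had no log2 value. The number of arrays limits the precision.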

Additional observations from a re-analysis of the deposited data

How the results depend on the processing

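The median of the 5p arms was below 0 under each scaling, floor and membership setting tried and without background subtraction, but not clearly so with local background subtracted. The floor and membership settings could hardly move it and are no check on its direction. Each 5p probe lay above every floor, and the brighter arms are the same 6 probes. All probes with the seed include these 6. The 5p median was -0.28 without scaling, -0.65 with the control probes equal and -0.050 with local background subtracted over the 5 probes with a value. In alternatives chosen after seeing the data it was -0.0098 with local background subtracted and low values set to the floor, and 0.068 with miR-15a-5p counted as higher. Under the other settings the 5p median moved by less than 0.13. That is the median technical SD of a single 5p probe, and an SD of the 5p median itself was not computed. The median of the 3p arms, -0.39, ran from -0.73 with the floor doubled to -0.042 without background subtraction. The first of these is over 4 probes and the second over 6. With the floor doubled, miR-195a-3p and miR-322-3p, the higher ones as reported, had no value. The median technical SD of a single 3p probe, 0.49, exceeds this value in size, and an SD of the 3p median itself was not computed. These moves therefore say nothing about stability. The number of family probes at least 1.5-fold lower, 5 as reported, was 7 with the control probes equal, 4 with quantile or loess scaling or a pseudocount, 2 without scaling, 2 without background subtraction, 1 with local background subtracted (with or without the floor) and 2 with the probe-free level as floor. It was 2 with the brighter arm of each precursor and 3 over all probes with the seed, which count fewer probes. At fold thresholds of 2 and 3 it was 1 and 0. miR-15b-5p reversed to 0.87 with local background subtracted, or 0.80 with low values set to the floor, where miR-15a-5p reversed too, and the cause was not tested. The brighter arm and the seed give no value for the 3p arms. With 1 array per group no replicate could be left out, and no paired analysis was possible because each group has 1 array.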
